A study of Mus musculus with 4 samples.

Results

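The glycoproteins and proteoglycans of basement membrane were examined in mouse podocytes treated with IL-12. The group holds 10 genes of the 54532 in the deposited count table: the secreted heparan sulfate proteoglycans Hspg2 (perlecan) and Agrn (agrin), the nidogens Nid1 and Nid2, the syndecans Sdc1, Sdc2 and Sdc4, the glypicans Gpc1 and Gpc4, and Dag1 (dystroglycan). They were taken by gene name, and every name matched 1 row. The control group had 2 libraries, and the IL-12 treatment group, given IL-12 for 6 h, had 2 libraries. Control cells received saline. All were of MPC5, a conditionally immortalized mouse podocyte line that grows with interferon-γ and differentiates without it. Both groups therefore come from a single cell line, and separate cultures are not stated for the replicates, so that P-values measure the spread between these libraries, which may be technical.

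A basement membrane is a sheet of laminin and type IV collagen networks. Nidogens bridge these networks, and perlecan and agrin add the heparan sulfate chains that hold water, growth factors and negative charge. In the kidney the podocyte lays down much of the glomerular basement membrane, and agrin is the main heparan sulfate proteoglycan of the mature membrane. On the cell side, syndecans cross the plasma membrane, glypicans are tied to it by a lipid anchor, and dystroglycan binds laminin, agrin and perlecan outside the cell and the dystrophin or utrophin complex inside it.

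Most of these transcripts were lower after IL-12 treatment, by small amounts. Of the 9 genes with enough counts to be tested, 7 (Dag1, Nid2, Gpc4, Sdc1, Sdc2, Hspg2 and Agrn) were lower in the IL-12 treatment group, 0 were higher, and Sdc4 and Gpc1 did not pass the test. A gene passed when its adjusted P from edgeR's quasi-likelihood test was below 0.05, with Benjamini-Hochberg adjustment over the 14095 genes tested. Among all genes tested, 14.4% were lower and 16.1% higher by this rule, against 77.8% and 0% of the 9. With scaling by total counts only, 40.5% of all genes that passed were higher, against 52.8% with TMM scaling, and the counts of 7 and 0 within the group were the same. Highly expressed genes pass more often: among the 2560 genes of at least 100 CPM (library-scaled counts, with TMM factors), 21.6% were lower and 32.1% higher, and 8 of the 10 genes are at that level. No gene of the group changed over 2-fold, a limit that 1.61% of all genes tested passed together with the P threshold. The median log2 fold change of the 9 was -0.29, and that of all genes tested was -0.0022. In 7 of the 9 both IL-12 libraries lay below both control libraries, as in 31.2% of all genes tested, and in 1 (Sdc4) both lay above, as in 31.7% of all genes.

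**Figure D1:**
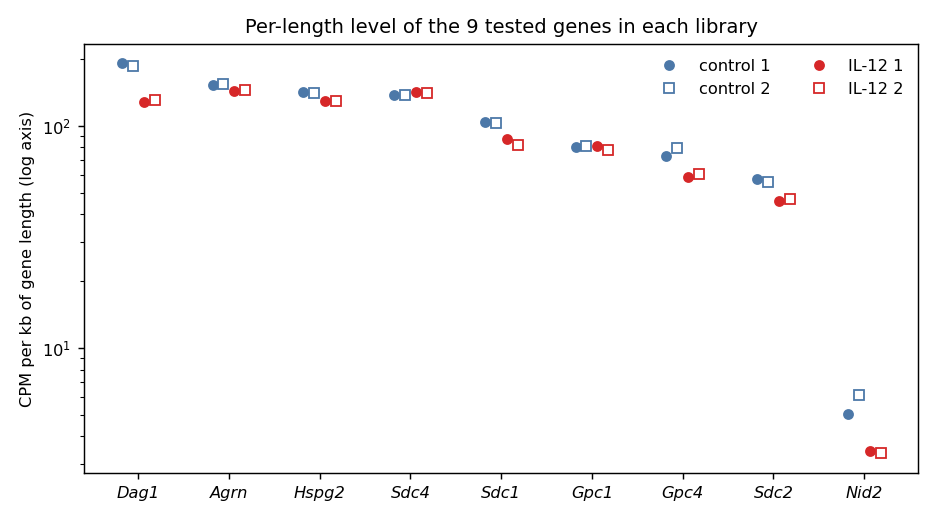
Level of the 9 tested genes in each library, as CPM per kb of gene length on a log axis, with blue for control, red for IL-12 and a filled circle or open square for replicate 1 or 2. Dag1 was highest in the control libraries (185 and 191) and Nid2 lowest (5.07 and 6.12), and Nid1, with at most 4 counts, is not drawn.

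Ranked by level per kilobase among all genes tested, 8 members stood between percentiles 93.9 and 98.9 and Nid2 at 46.7. Total counts were 18355379 to 20098012 per library, at which 3 counts correspond to 0.152 to 0.166 CPM (counting error only). Replicates were distinct libraries, since their counts varied beyond Poisson error. The labelled cell type was checked against its defining markers. Nphs1, which encodes the slit diaphragm protein nephrin, had at most 1 count in any library, Ptpro and Tcf21 had 0, and Wt1 had 4 to 16, while Synpo, Actn4, Cd2ap and Podxl were present. Of 15 podocyte markers, 8 were tested, with 3 higher (Actn4 and Podxl among them) and 2 lower (Synpo, Plce1). These shares were 37.5% and 25%, against 16.1% and 14.4% of all genes tested. The summed level of the 15 markers was 2027 to 2032 CPM in the control libraries and 1987 to 2008 CPM in the IL-12 libraries. Of 8 tubular markers, Lrp2 and Cdh16 were well expressed and both were lower with IL-12 (log2 fold changes -0.27 and -0.75), and the summed level was 832 to 868 CPM with saline and 641 to 679 CPM with IL-12, with Umod and Slc34a1 at 0. The 8 endothelial markers summed to 0.583 to 0.95 CPM, and none was tested. Of 7 leukocyte markers Csf1r was lower, with a sum of 26.3 to 29.0 CPM in the control libraries and 16.1 to 20.2 CPM in the IL-12 libraries, and Adgre1 and Cd3e at 0. Csf1r overlaps Hmgxb3, which had more counts, on the opposite strand. Of 6 mesangial markers Pdgfrb was higher and Gata3 lower, with sums of 97.4 to 102 CPM and 99.9 to 111 CPM. Of the 3 tubular, 2 leukocyte and 4 mesangial markers tested, 66.7%, 50% and 25% were lower, and 0%, 0% and 25% higher. These lists are too small for such shares to be set against the 14.4% and 16.1% of all genes tested. The calls of Pdgfrb and Gata3 were lost with the DESeq2 Wald test and without single libraries, and that of Podxl without the first IL-12 library (adjusted P = 0.0516 in edgeR's quasi-likelihood test). The part of these markers in the results below was not tested. All libraries come from a single cell line, so the marker lists describe what that line expressed. Counts of a whole library do not show whether a change arose in all cells or in some.

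Dag1 had the smallest P-value of the group. It encodes both subunits of dystroglycan, the laminin-binding outer α-subunit and the membrane-spanning β-subunit, from 1 transcript. The gene (ENSMUSG00000039952) lies on chromosome 9 of GRCm38 from 108204634 to 108263958 on the minus strand, and its longest coding transcript has 4 exons and 893 codons. Its level was 1213 and 1179 CPM in the control libraries. With IL-12 it was 817 and 832 CPM. The groups were far apart relative to their spread, and Dag1 fell by 31.1%. The log2 fold change was -0.54 (SE, the standard error, 0.03, 95% interval -0.59 to -0.48, adjusted P = 3.24e-11 from edgeR's quasi-likelihood test), which put Dag1 at rank 34 of all genes tested by P-value.

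Per kilobase of gene length, Dag1 was the most abundant gene of the group in the control libraries, with 191 and 185 CPM per kb, above its ligand Agrn with 153 and 154. In the IL-12 libraries Dag1 had 129 and 131 CPM per kb, Agrn 143 and 146, and Hspg2 129 and 130. The order thus went from Dag1, Agrn, Hspg2 and Sdc4 in the control group to Agrn, Sdc4, Dag1 and Hspg2 in the IL-12 treatment group, where the values of Dag1 and Hspg2 overlapped. Within a library the ratio of Agrn to Dag1, which does not depend on the scaling between libraries, was 0.803 and 0.831 with saline and 1.12 and 1.11 with IL-12. The ratio of Hspg2 to Dag1 was 0.747 and 0.755 with saline and 1.004 and 0.991 with IL-12. Neither ratio overlapped between the groups, although the smallest two-sided P of an exact permutation test is 0.3333 at this sample size.

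The promoter window of Dag1 is shown beside that of Sdc4, the tested gene with a promoter entry that changed least, so that the start regions of a gene that fell and of one that did not pass can be read together. The windows run from 250 bases before to 50 bases after the start of transcription in RefSeq (GRCm38.p6), chr9:108263909-108264208 on the minus strand for Dag1 and chr2:164443139-164443438 on the minus strand for Sdc4. Capitals mark the GC box (GGGCGG on either strand).
Dag1: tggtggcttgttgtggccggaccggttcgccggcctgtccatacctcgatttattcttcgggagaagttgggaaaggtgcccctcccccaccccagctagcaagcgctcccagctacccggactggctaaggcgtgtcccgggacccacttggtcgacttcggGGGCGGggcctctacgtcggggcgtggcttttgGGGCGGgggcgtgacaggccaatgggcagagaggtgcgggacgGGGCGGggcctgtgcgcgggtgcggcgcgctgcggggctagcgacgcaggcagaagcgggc
Sdc4: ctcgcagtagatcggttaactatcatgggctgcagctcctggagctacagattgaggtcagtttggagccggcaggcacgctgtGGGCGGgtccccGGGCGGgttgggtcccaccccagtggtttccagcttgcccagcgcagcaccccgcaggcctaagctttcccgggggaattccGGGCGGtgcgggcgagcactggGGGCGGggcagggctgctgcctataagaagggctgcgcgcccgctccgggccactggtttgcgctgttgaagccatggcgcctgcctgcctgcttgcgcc
The Dag1 window held 3 GC boxes and the Sdc4 window 4. Of the 10 genes, 7 had entries, with 9 windows in all, and Nid2, Sdc2 and Gpc1 had none. Agrn and Dag1 had more than 1 window each. Those of Dag1 overlap and share GC boxes, so the 9 windows are not separate observations. All 9 windows held a GC box, which 35.7% of the 32851 promoter windows of the table did. Their GC content was 61.3% to 83.3%, and the median of all windows was 52.7%. The AP-1 motif (TGANTCA) was in 0 of the 9 windows and in 7.81% of all windows, and the SMAD box (GTCTG) was in 1, that of Sdc1, and in 49.6% of all. The TEAD motif (GGAATG) was in 2, those of Nid1 and Gpc4, and in 14.7% of all. Both strands were searched, and these motifs do not overlap in the windows shown. Such matches describe the letters of the window only.

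The secreted proteoglycans Hspg2 and Agrn changed least among the genes that passed. Hspg2 encodes perlecan, a very long core protein that carries heparan sulfate chains (ENSMUSG00000028763, chromosome 4 from 137468769 to 137570630, 97 exons and 4383 codons in the longest coding transcript). It was the gene of the group with most counts, at 2040 and 2004 CPM in control libraries against 1846 and 1856 CPM with IL-12. The groups did not overlap, and Hspg2 fell by 8.45%, a log2 change of -0.13 (SE 0.02, 95% interval -0.18 to -0.08, adjusted P = 0.000312 from edgeR's quasi-likelihood test).

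Agrn encodes agrin, whose carboxy-terminal part binds dystroglycan (ENSMUSG00000041936, chromosome 4 from 156165290 to 156197488, 36 exons and 2034 codons). It had 1422 and 1430 CPM with saline against 1331 and 1352 CPM with IL-12. Both IL-12 values were lower, by amounts only a few times the difference between replicates, and Agrn fell by 5.92%. The log2 fold change was -0.09 (SE 0.02, 95% interval -0.14 to -0.04, adjusted P = 0.00955 from the same edgeR test). This call depended on single libraries: the adjusted P in the same test was 0.0578 without the second control library and 0.0802 without the first IL-12 library. Within libraries the ratio of Agrn to Hspg2 was 1.07 and 1.10 with saline and 1.11 and 1.12 with IL-12, which did not overlap but differed by little more than the spread.

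Col18a1, a basement membrane collagen that also carries heparan sulfate, was set beside these proteoglycans. Hspg2 made up 33.3% to 33.5% of the summed per-length level of Hspg2, Agrn and Col18a1 in the control libraries and 32.7% to 33.0% in the IL-12 libraries. Agrn made up 36.0% to 36.6% and 36.4% to 37.0%. The sum itself went from 421 to 426 CPM per kb with saline to 393 to 394 with IL-12, so the total was lower while the shares of Agrn overlapped between the groups.

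Of the nidogens, only Nid2 was expressed at a level that could be tested. Nid1 (ENSMUSG00000005397, chromosome 13 from 13437551 to 13512269) had 1 and 0 counts with saline and 4 and 2 with IL-12. These counts lie around the 3-count floor, and no fold was computed. Nid2 (ENSMUSG00000021806, chromosome 14 from 19751265 to 19811787) had 497 and 598 counts with saline and 351 and 314 counts with IL-12. It therefore supplied at least 99.2% of the summed per-length level of the nidogens in each library. In CPM the values were 26.2 and 31.7 in control libraries against 17.7 and 17.4 with IL-12, and the control libraries differed more from each other than the IL-12 libraries did.

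Nid2 fell by 39.4%, the largest change of the group, with a log2 change of -0.72 (SE 0.10, 95% interval -0.93 to -0.52, adjusted P = 1.24e-05 from edgeR's quasi-likelihood test). With single libraries left out, the value lay between -0.85 and -0.58. The value is uncertain because the last 437 bases of Nid2 overlap Rtraf, a gene on the opposite strand with 6068 counts over the 4 libraries against 1760 for Nid2. No source says whether strand was used in the counting. Rtraf itself was lower with IL-12, with a log2 change of -0.27 (SE 0.05, adjusted P = 0.000249 from the same edgeR test). The part of Rtraf reads in the change of Nid2 was not tested.

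**Figure D2:**
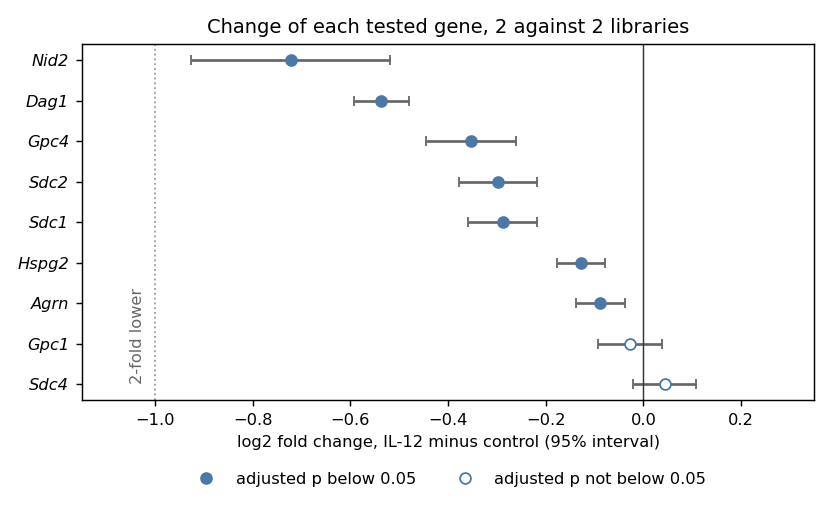
Log2 fold change of each tested gene, IL-12 minus control, with its 95% interval from edgeR's quasi-likelihood fit on 2 against 2 libraries; filled points had an adjusted P below 0.05, and the dotted line marks a 2-fold decrease. Nid2 (-0.72) and Dag1 (-0.54) lie farthest left, while the intervals of Gpc1 and Sdc4 include 0.

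The syndecans are transmembrane proteoglycans whose outer domains carry heparan sulfate and whose short cytoplasmic tails end in a motif bound by PDZ-domain proteins. The 3′ ends of their coding sequences are shown because all end in the same short motif. Each is the last 84 bases before the stop codon in GENCODE M21 (GRCm38), within 1 exon, with the last 4 codons in capitals, from chr12:8791721-8791804 (plus strand) for Sdc1, chr15:33032454-33032537 (plus strand) for Sdc2 and chr2:164426089-164426172 (minus strand) for Sdc4.
Sdc1: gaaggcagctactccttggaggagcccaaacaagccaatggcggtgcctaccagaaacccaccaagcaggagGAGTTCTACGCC
Sdc2: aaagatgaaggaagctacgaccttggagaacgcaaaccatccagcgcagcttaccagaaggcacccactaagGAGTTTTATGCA
Sdc4: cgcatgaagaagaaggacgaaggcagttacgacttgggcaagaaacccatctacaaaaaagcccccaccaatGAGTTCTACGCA
The last 12 bases were equal at 9 positions between Sdc1 and Sdc2, at 11 between Sdc1 and Sdc4 and at 10 between Sdc2 and Sdc4, and in all pairs they encode the same 4 residues. Over all 84 bases, compared position by position from the end without gaps, 28, 28 and 36 bases were equal in these pairs. This count misses like stretches at shifted positions, such as gaaggcagctac in Sdc1, gaaggaagctac in Sdc2 and gaaggcagttac in Sdc4. It is therefore no measure of how alike the tails are.

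Sdc1, a syndecan of epithelia (ENSMUSG00000020592, chromosome 12 from 8771323 to 8793715), had 396 and 391 CPM in control libraries against 331 and 313 CPM with IL-12. Sdc2, known from mesenchymal and endothelial cells (ENSMUSG00000022261, chromosome 15 from 32920723 to 33034935), had 203 and 198 CPM with saline and 162 and 165 CPM with IL-12. Both were lower in both IL-12 libraries, by an amount well over the spread within a group. Sdc1 fell by 18.1%, a log2 change of -0.29 (SE 0.03, 95% interval -0.36 to -0.22, adjusted P = 2.47e-06 from edgeR's quasi-likelihood test). Sdc2 fell by 18.6%, a log2 change of -0.30 (SE 0.04, 95% interval -0.38 to -0.22, adjusted P = 7.87e-06 from the same test). The ratio of Sdc1 to Sdc2 within a library was 1.81 and 1.83 with saline and 1.90 and 1.76 with IL-12, so that these values overlapped.

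Sdc4, a syndecan of focal adhesions that binds protein kinase C alpha (ENSMUSG00000017009, chromosome 2 from 164424247 to 164443887), did not pass. It had 350 and 351 CPM in the control libraries against 363 and 359 CPM in the IL-12 libraries. Both IL-12 values were slightly above both control values, and the log2 fold change was 0.04 (SE 0.03, 95% interval -0.02 to 0.11, adjusted P = 0.33 from edgeR's quasi-likelihood test). Changes of more than 7.80% upward or of the size seen for Sdc1 and Sdc2 lie outside this interval. The ratio of Sdc4 to Sdc1 within a library was 1.32 and 1.34 with saline and 1.64 and 1.71 with IL-12. The ratio of Sdc4 to Sdc2 was 2.38 and 2.46 with saline and 3.12 and 3.01 with IL-12. In both ratios the groups did not overlap, although the smallest two-sided P of an exact permutation test is 0.3333 at this sample size. These ratios restate the changes of the single genes and are not separate evidence.

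Sdc3, the remaining syndecan, was taken from the list of relatives. It had 61.0 and 55.9 CPM with saline and 70.6 and 70.1 CPM with IL-12. It was the only syndecan that rose, with a log2 change of 0.27 (SE 0.06, adjusted P = 0.00102 from the same edgeR test). As shares of the summed per-length level of the 4 syndecans, Sdc4 made up 44.4% and 45.1% in control libraries against 49.68% and 50.03% with IL-12. The share of Sdc1 was 33.7% and 33.5% against 30.3% and 29.2%, and that of Sdc2 was 18.6% and 18.3% against 15.9% and 16.6%. The share of Sdc3 was 3.29% and 3.05% against 4.11% and 4.16%. The sum over the family was 309 and 306 CPM per kb with saline and 287 and 281 with IL-12, so the family was lower in total and held relatively more Sdc4.

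**Figure D3:**
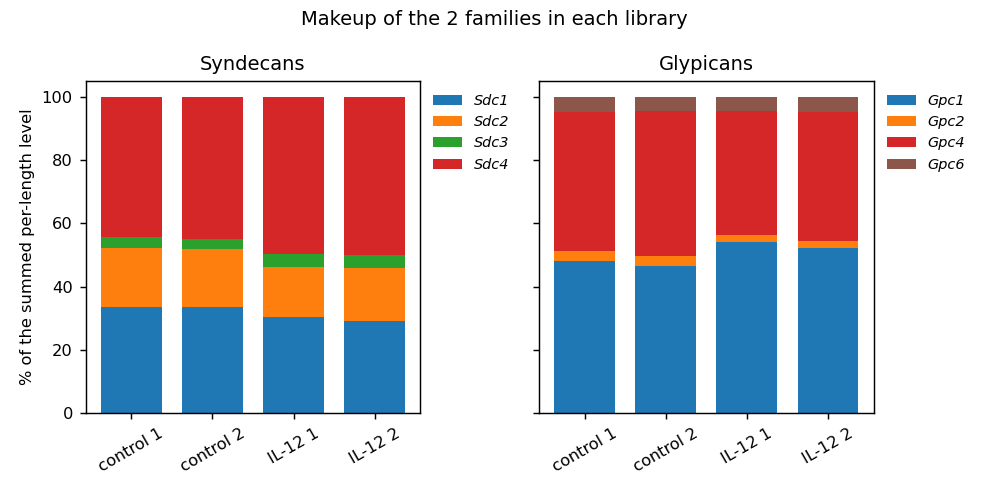
Share of each gene in the summed per-length level of the syndecans (left) and the glypicans (right), in percent, for each of the 4 libraries; Gpc3 and Gpc5, under 0.1% in every library, are not drawn. Sdc4 rises from 44.4% and 45.1% to 49.68% and 50.03%, and Gpc1 from 48.1% and 46.6% to 54.0% and 52.3%.

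The glypicans Gpc1 and Gpc4 also differed from each other. Glypicans carry heparan sulfate close to the plasma membrane and modulate growth factor signals there. Gpc4 (ENSMUSG00000031119, chromosome X from 52053021 to 52165252) had 193 and 211 CPM in control libraries against 156 and 161 CPM with IL-12. The IL-12 values were lower by more than the spread, and Gpc4 fell by 21.7%. Its log2 fold change was -0.35 (SE 0.04, 95% interval -0.45 to -0.26, adjusted P = 5.43e-06 from edgeR's quasi-likelihood test).

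Gpc1 (ENSMUSG00000034220, chromosome 1 from 92831645 to 92860779) had 414 and 420 CPM with saline and 416 and 402 CPM with IL-12. These values overlapped, and the log2 fold change was -0.03 (SE 0.03, 95% interval -0.09 to 0.04, adjusted P = 0.557 from the same test). Ankmy1 and 2 antisense genes overlap Gpc1 on the opposite strand, with 24, 26 and 5 counts over the 4 libraries against 31298 for Gpc1. The ratio of Gpc1 to Gpc4 within a library was 1.10 and 1.02 with saline and 1.37 and 1.28 with IL-12, without overlap between the groups. The same limit of the permutation test holds for this ratio, which restates the changes of the 2 genes.

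Among the other glypicans, Gpc2 and Gpc6 were lower, Gpc3 had 1 to 4 counts per library and Gpc5 had 0. Gpc2 had 22.9 and 23.9 CPM with saline and 14.5 and 14.9 CPM with IL-12, a log2 change of -0.67 (SE 0.09, adjusted P = 1.75e-05 from the same edgeR test). Gpc6 had 52.5 and 51.3 CPM with saline and 42.3 and 44.6 CPM with IL-12, a log2 change of -0.26 (SE 0.06, adjusted P = 0.00276), which without the first IL-12 library had an adjusted P of 0.0713 in the same test. Gpc1 made up 48.1% and 46.6% of the summed per-length level of the glypicans in control libraries against 54.0% and 52.3% with IL-12. Gpc4 made up 43.7% and 45.6% against 39.3% and 40.7%.

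The lists of related genes hold relatives of the group, other matrix genes and genes that build, modify or bind these proteins. They moved in both directions. Of 110 genes in the 8 lists, 74 were tested, of which 17 (23.0%) were higher and 19 (25.7%) lower, with a median log2 fold change of -0.03. The shares over all genes tested were 16.1% higher and 14.4% lower, and over genes of at least 100 CPM 32.1% and 21.6%, so that the lists together lay between these backgrounds in the higher direction and above both in the lower one. For heparan sulfate synthesis, 21 of 27 genes were tested, with 6 higher (28.6%, against 16.1% of all genes), 4 lower (19.0%, against 14.4%) and a median of 0.08. Ext1, a polymerase of the chain, rose from 230 and 237 CPM to 356 and 330 CPM, a log2 change of 0.55 (SE 0.04, adjusted P = 3.18e-09 from edgeR's quasi-likelihood test). Its partner Ext2 was lower by a smaller amount, with a log2 fold change of -0.11 (adjusted P = 0.0468 from the same test).

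Among the N-deacetylase/N-sulfotransferases, which start the sulfation of the chain, Ndst1 and Ndst2 fell and Ndst3 rose. Ndst1 was the most abundant of these, with 443 and 428 CPM against 359 and 369 CPM and a log2 fold change of -0.26. Ndst3 had 16.7 and 17.0 CPM against 25.9 and 27.5 CPM and a log2 fold change of 0.66. Hs6st2, a 6-O-sulfotransferase, was lower (log2 fold change -0.31). Hs6st1, of the same kind, did not pass (-0.08, adjusted P = 0.115 from edgeR's quasi-likelihood test). It was the more abundant, with a control mean of 219 CPM against 93.7 CPM for Hs6st2. Hs2st1, Hs3st1 and Hs3st3b1, which sulfate other positions, and B4galt7, of the linkage region, were higher (0.12, 0.56, 0.51 and 0.29). Hs3st1 and Hs3st3b1 were low, with control means of 8.67 and 8.30 CPM. Hs3st3b1 is uncertain, since it may share reads with its paralog Hs3st3a1, which was not tested. Hs3st3a1 itself did not pass (log2 fold change 0.21, adjusted P = 0.432 from edgeR's quasi-likelihood test). The list count was not stable: 2 genes were lower with the DESeq2 Wald test or with no filter on low counts. Over all genes, 1213 of 14095 and 1456 of 24525 were lower in these settings, against 2030 of 14095 in the main fit. Fewer genes of the list also passed without the second IL-12 library, as did fewer genes over all. Of the enzymes that remodel finished chains, Sulf2 (adjusted P = 0.606) and Hpse (adjusted P = 0.148 from the same edgeR test) did not pass, and Sulf1 and Hpse2 were at or near 0. Without the first IL-12 library, 1 of these enzymes was lower.

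Around dystroglycan, 10 of 13 genes of the intracellular and sarcoglycan complex were tested, with 1 higher (10%, against 16.1% of all genes), 3 lower (30%, against 14.4%) and a median of -0.13. Utrn, the large cytoskeletal linker utrophin, had 468 and 451 CPM against 377 and 398 CPM, a log2 change of -0.25 (SE 0.03, adjusted P = 1.41e-05 from edgeR's quasi-likelihood test). Sspn (sarcospan) was also lower (log2 fold change -0.39), and Dtnb (a dystrobrevin) was higher (0.29). With scaling by total counts only, 5 genes of this list were lower. The number lower over all 14095 genes tested then went from 2030 to 2590. Dmd (dystrophin) did not pass, with a log2 fold change of -0.11 (adjusted P = 0.552 from the same test).

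Of 17 genes that glycosylate dystroglycan, 15 were tested, with 3 higher, 2 lower and a median of 0.08. These shares, 20% and 13.3%, lie near the 16.1% and 14.4% of all genes tested and are no result about the list. Rxylt1 (listed as Tmem5), Pomgnt1 and B3galnt2 were higher (log2 fold changes 0.24, 0.20 and 0.20), and B4gat1, which helps to build the laminin-binding sugar, was among the lower genes (-0.34). These counts were smaller when the first IL-12, the first control or the second IL-12 library was left out. Fewer genes over all passed in those fits too. Pomgnt1 overlaps Lurap1 on the opposite strand, with 407 counts against 6154.

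**Figure D4:**
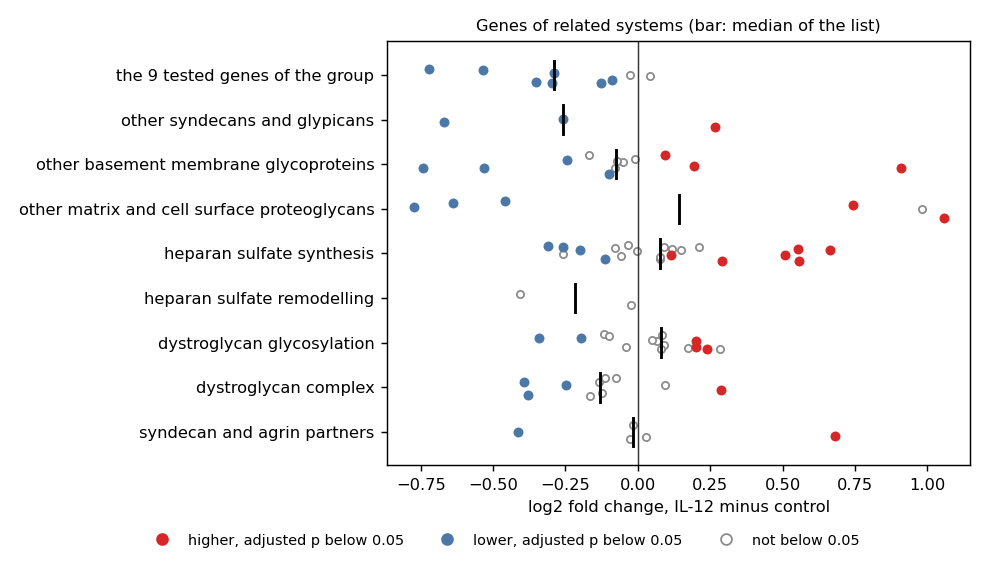
Log2 fold change, IL-12 minus control, of each tested gene in the group and in the 8 lists of related genes, with red and blue for genes higher or lower at an adjusted P below 0.05, grey for the others and a black bar at each list's median. The group's median is -0.29, and the lists of matrix proteoglycans and of other basement membrane glycoproteins spread to both sides.

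Of 19 other basement membrane glycoproteins, 12 were tested, with 3 higher (25%, against 16.1% of all genes), 4 lower (33.3%, against 14.4%) and a median of -0.07. Fbln2, a fibulin that binds nidogens and perlecan, rose from 136 and 139 CPM to 268 and 248 CPM, a log2 change of 0.91 (SE 0.04, adjusted P = 1.41e-11 from edgeR's quasi-likelihood test). Tinagl1, a matricellular protein, was also higher (log2 fold change 0.19). Ntn4, a netrin that binds laminin, had 107 and 109 CPM against 74.2 and 75.4 CPM and a log2 fold change of -0.53. Npnt (nephronectin, an integrin ligand) was lower too, with a log2 fold change of -0.25. Pxdn (peroxidasin, which crosslinks type IV collagen) was the third higher gene, and Fras1 and Col18a1 were the remaining lower genes (log2 fold changes 0.09, -0.74 and -0.10). Sparc, which had most counts of this list, did not pass (log2 fold change -0.01).

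Of 18 other matrix and cell surface proteoglycans, 6 were tested, with 2 higher (33.3%, against 16.1% of all genes), 3 lower (50%, against 14.4%) and a median of 0.14, and 5 were at 0 in every library. Cd44, which can carry glycosaminoglycan chains, was the only gene of the 8 lists over 2-fold, with a log2 fold change of 1.06. Nrp1 (neuropilin, a co-receptor) was higher (0.74), and Tgfbr3 (betaglycan) and Ogn (osteoglycin) were lower (-0.64 and -0.77). Ogn overlaps Cenpp on the opposite strand, with 302 counts against 2310. Of 7 partners of syndecans and agrin, 5 were tested, with 1 higher and 1 lower (20% each, against 16.1% and 14.4% of all genes). Prkca, the kinase bound by Sdc4, was higher, with 44.0 and 43.1 CPM against 68.8 and 71.0 CPM and a log2 change of 0.68 (SE 0.06, adjusted P = 2.25e-08 from edgeR's quasi-likelihood test). Lrp4, the agrin receptor of the neuromuscular junction, was lower (-0.41), with an adjusted P of 0.00442, or 0.0571 without the first IL-12 library, from the same edgeR test. Sdcbp (syntenin, which binds syndecan tails) did not pass, with a log2 fold change of 0.03 and an adjusted P of 0.662 from that test.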

How the data were processed

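RNA-sequencing of 4 libraries of MPC5 podocytes was analysed, grouped by sample title. Per gene, the authors deposited unnormalized whole-number counts and FPKM values, which equal depth- and length-scaled counts times 1 factor per library (0.985 to 1.02). The submitters' processing notes name HISAT2, StringTie and mm9, and versions and strand use are not given in the sources used here. The deposited coordinates equalled those of GENCODE M21 (GRCm38) for 98.3% of 54409 shared genes and for all 10 members, so GRCm38 is given. Gene lengths are as deposited.

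The counts were tested with edgeR 4.0.16 under R 4.3.3 (filterByExpr with a minimum of 10 counts and 15 in total, TMM, quasi-likelihood test, Benjamini-Hochberg adjustment, no replicate block), after a check on simulated counts. The standard error was taken as |log2 fold change|/√F, and 95% intervals use the fit's t distribution. Alternatives were DESeq2 1.42.0 (size factors and Wald test), limma 3.58.1 voom, upper-quartile and total-count scaling, other filters, a replicate block and each library left out. Figures used Python 3.11.15 and matplotlib 3.10.9. Depths of 18355379 to 20098012 counts set the precision.

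The named genes are the members, all syndecans and glypicans, up to 2 genes per list and direction with the smallest P, and markers that passed. Others (Pxdn, Fras1, Col18a1, Ext2, Ndst2, Hs2st1, Hs3st1, Hs3st3b1, B4galt7, Sspn, B3galnt2, and those given as not passing or as absent) were named after their values were seen. The members, lists and motifs were chosen with earlier results of these data known. A few genes counted in the lists are not reported here by name.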

Additional observations from a re-analysis of the deposited data

How the results depend on the processing

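Of the 9 tested genes, 8 kept their direction and their side of the threshold in all 12 alternatives, and Agrn did so in 10 of 12. The counts of 7 lower and 0 higher genes changed to 0 lower with a limit of over 2-fold, under which 1 gene of the related lists was higher and 0 were lower. The number of the 9 genes that were lower ranged from 6 to 7 with each library left out. These fits leave 1 group with 1 library, which is assumed to vary like the others. With the replicate block 7 members were lower and 0 higher. Same-numbered libraries did not deviate together (correlation -0.03 across genes), and no source says that a number marks a shared batch, so the block served only as an alternative. It changed the call of none of the 9 tested members. Members' levels from the deposited FPKM moved by less than the spread between replicates. With 2 libraries per group the P-values rest on a variance estimate pooled across genes, and levels near 3 counts, as for Nid1, cannot show a difference.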
